A study of Mus musculus with 2 samples.

Results

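Lifr, Il6st, Il6ra, Stat3, Socs3, Pim1, Cish and Il2ra were followed across the immune cells of the mouse peritoneal cavity. These 8 genes were picked by symbol from the 28692 genes listed in the deposited tables, as receptors of the leukaemia inhibitory factor and interleukin-6 family, their STAT, and genes that STAT proteins are known to switch on. In the GENCODE M21 annotation of GRCm38, which is not stated to be the one used for counting, Lifr spans chr15:7090614-7197489 and Il6st chr13:112464070-112510086 on the plus strand, and Pim1 chr17:29490753-29496112, Cish chr9:107296026-107302784 and Il2ra chr2:11642807-11693193 as well. On the minus strand lie Il6ra at chr3:89864059-89913196, Stat3 at chr11:100885098-100939540 and Socs3 at chr11:117966079-117970047. They were picked with earlier results of the same data in view, in which Lifr and Pim1 already stood out in B-1 cells, so their values are a description. Droplet single-cell RNA sequencing (10x Genomics, 3′ chemistry) had been run on 1 WT library and 1 Xbp1dIEC library. All mice were germ-free C57BL/6 males aged 10 weeks, so the absence of microbes is shared by both groups. Xbp1dIEC mice lack Xbp1, which encodes a factor that cells use to cope with misfolded protein, in the epithelium of the gut. The deletion is not in the cells that were sequenced, so Xbp1 reads in them do not check the genotype. Each library pooled equal numbers of cells from 4 mice, and the mice cannot be told apart in it.

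The pathway works as follows. LIFR binds leukaemia inhibitory factor and pairs with gp130, the shared signal chain that Il6st encodes. IL-6 uses the receptor chain encoded by Il6ra together with gp130. Kinases of the JAK family bound to gp130 then phosphorylate STAT3, which enters the nucleus and switches on genes such as Socs3, whose product binds gp130 and the kinases and damps the signal. Pim1 encodes a serine/threonine kinase that promotes survival and growth and is a target of both STAT3 and STAT5. Cish encodes a SOCS-family inhibitor, and Il2ra the high-affinity chain of the interleukin-2 receptor; both are best known as targets of STAT5. Peritoneal B-1 cells are a self-renewing B cell population that makes natural IgM, whereas B-2 cells are the conventional recirculating kind.

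STAT3 and STAT5 dimers bind DNA at the palindrome TTCNNNGAA, in which N is any base, so that both strands are searched at once. All 8 genes were found among the RefSeq promoters of GRCm38.p6, with 2 start sites each for Lifr and Pim1. Of all 32851 promoter windows of 300 bases, which run from 250 bases before a start to 50 bases after it, 8.30% held the motif. Among the members, the windows of Cish and Socs3 held it. In Cish there were 2 matches, at positions 1 and 12 counted from the RefSeq start. In Socs3 there was 1 match that began 154 bases before the RefSeq start. The matches of both genes lie inside the GENCODE genes, whose 5′ ends were not searched. The stretches with matches are shown 5′ to 3′ on the gene's strand, with the matches in capitals, because these genes encode the inhibitors among the members.
Cish, chr9:107296656-107296685, plus strand: gttTTCCTGGAAagTTCTTGGAAatctgtc
Socs3, chr11:117969494-117969523, minus strand: gccTTCTTAGAAgggaggggggggaaagtg

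The windows of Lifr, Pim1, Il2ra, Il6ra, Il6st and Stat3 held no match. The 250 bases before the starts of Lifr, Pim1 and Il2ra are given because these genes, with Cish, differed most between the libraries in B-1 cells. The more 5′ of the RefSeq starts is used for Lifr and Pim1. Both Lifr starts lie inside the GENCODE gene, which begins at 7090614, so the 5′ end of that gene was not searched. The stretches are in lower case throughout, since they hold no match.
Lifr, chr15:7129322-7129571, plus strand: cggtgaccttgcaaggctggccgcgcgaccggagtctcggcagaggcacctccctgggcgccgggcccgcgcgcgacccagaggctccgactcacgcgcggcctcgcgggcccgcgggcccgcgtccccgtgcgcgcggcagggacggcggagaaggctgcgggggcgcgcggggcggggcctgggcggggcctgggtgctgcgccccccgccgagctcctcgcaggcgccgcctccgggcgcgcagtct
Pim1, chr17:29490535-29490784, plus strand: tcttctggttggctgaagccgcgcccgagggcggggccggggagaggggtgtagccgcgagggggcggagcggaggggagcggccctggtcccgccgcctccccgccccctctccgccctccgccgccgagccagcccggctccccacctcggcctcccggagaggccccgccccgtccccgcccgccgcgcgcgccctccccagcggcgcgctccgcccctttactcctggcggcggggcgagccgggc
Il2ra, chr2:11642542-11642791, plus strand: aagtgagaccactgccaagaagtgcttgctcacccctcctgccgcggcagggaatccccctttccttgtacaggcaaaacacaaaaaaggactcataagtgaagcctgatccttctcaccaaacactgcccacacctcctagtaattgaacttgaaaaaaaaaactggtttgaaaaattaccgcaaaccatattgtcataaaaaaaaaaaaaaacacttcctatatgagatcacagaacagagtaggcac
The Lifr and Pim1 stretches each had a GC content of 82.4%, against 42.4% for Il2ra. These letters describe the sequence only, and counts from the 3′ end of transcripts do not show which start was used.

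After removal of called doublets, 6058 WT and 6111 Xbp1dIEC cells were kept, and 58 barcodes occurred in both libraries. Cells were gated by raw UMIs (unique molecular identifiers, each standing for 1 captured transcript) of marker genes that are not members. The gates held 503 WT and 784 Xbp1dIEC B-1 cells, 885 and 718 B-2 cells, 278 and 231 T cells, 23 and 29 NK cells, and 2962 and 2951 macrophages. The median depth in WT ran from 3416 UMIs in NK cells to 9806 in macrophages, and in Xbp1dIEC from 3048 in NK cells to 8975 in B-1 cells. Levels are CPM, the counts of a gene per 1000000 UMIs of the class, with exact Poisson 95% intervals. Shares of cells have exact Clopper-Pearson 95% intervals. All intervals cover counting error only. With 1 library per genotype there is no replicate check and no test, and genotype cannot be told apart from any other difference between the pools or their handling.

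Defining markers set B cells and macrophages apart, but the B-2 gate was mixed. In NK cells the T cell markers summed to 1370 and 1155 CPM. Cd3d and Cd3e of that list had no UMI there in either library, and Cd3g and Trac had none in Xbp1dIEC. The gates themselves left out cells with 3 or more UMIs of the Cd3 genes. Markers of B cells summed to 6286 CPM in WT and 5764 in Xbp1dIEC B-1 cells and to 60.5 and 52.0 CPM in macrophages. Markers of macrophages summed to 57903 and 62773 CPM in macrophages and to 1824 and 1293 CPM in B-1 cells; the part of this RNA in the members' levels was not tested. S100a6, a B-1 marker that the gate did not use, stood at 4291 and 4192 CPM in B-1 cells and still at 2065 and 2540 CPM in B-2 cells. A stricter B-2 gate, added after this was seen, took cells with UMIs of Fcer2a or Cr2 and no UMI of the B-1 genes. It held 211 WT and 144 Xbp1dIEC cells, in which S100a6 was at 786 and 1164 CPM.

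**Figure D1:**
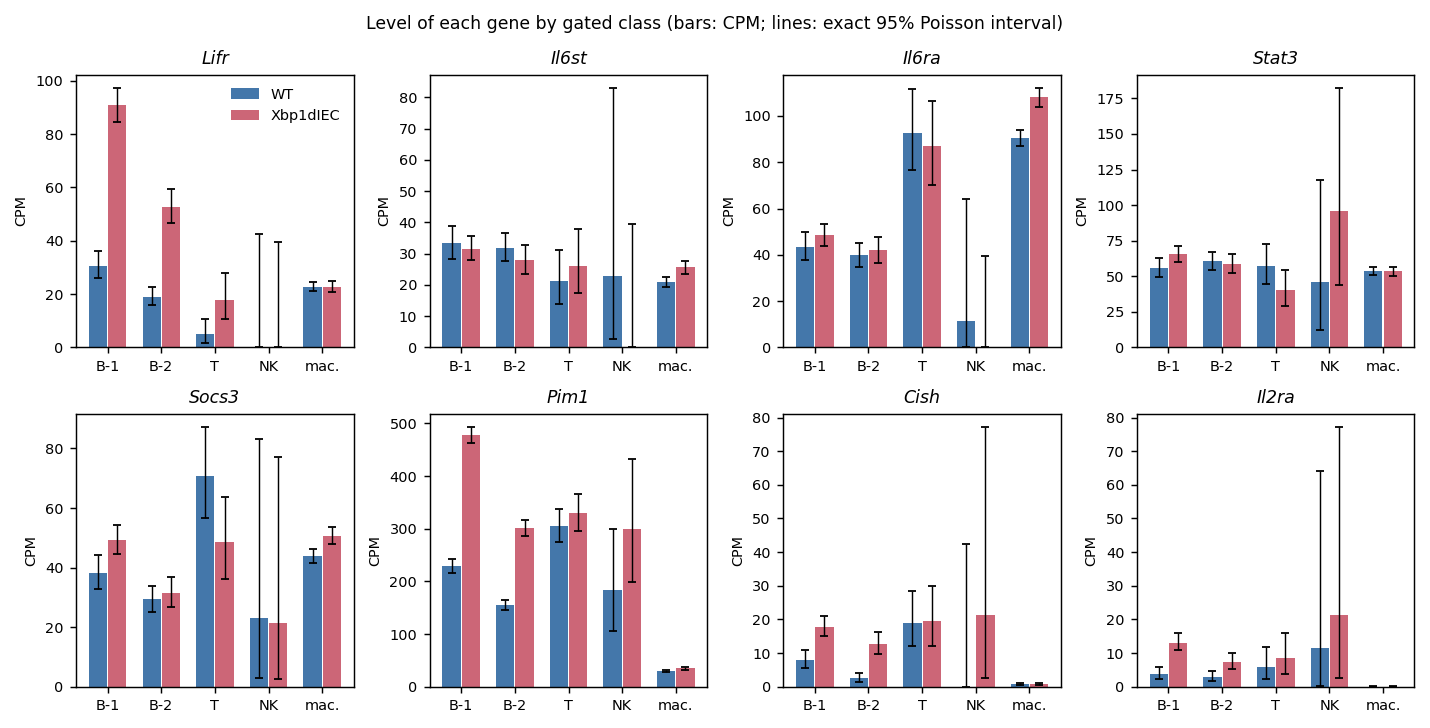
Level of each of the 8 genes in CPM (y axis, linear, own scale per panel) by gated class (x axis) for WT (blue) and Xbp1dIEC (red), with exact 95% Poisson intervals. Lifr was 30.7 in WT and 90.7 in Xbp1dIEC B-1 cells and 22.8 in macrophages of both libraries, and Pim1 was 229 and 478 in B-1 cells and 30.1 and 34.7 in macrophages.

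Lifr was higher in Xbp1dIEC than in WT B cells and the same in macrophages. In B-1 cells its level was 30.7 CPM (26.0 to 36.1) in WT, from 148 UMIs, and 90.7 CPM (84.4 to 97.4) in Xbp1dIEC, from 759 UMIs. Ratios are given on the log2 scale, Xbp1dIEC over WT, and that of Lifr was 1.56 (1.31 to 1.83), with level intervals that did not overlap. In macrophages the levels were 22.8 CPM in both libraries, from 677 and 536 UMIs, with a log2 ratio of 0.00 (-0.17 to 0.17).

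More B-1 cells held a Lifr UMI in Xbp1dIEC than in WT. At least 1 Lifr UMI was found in 99 of 503 WT B-1 cells, or 19.7% (16.3 to 23.4), and in 370 of 784 Xbp1dIEC B-1 cells, or 47.2% (43.7 to 50.8). Cells with 3 or more Lifr UMIs numbered 9 and 106. Among the cells with Lifr, the level was 117 CPM in WT and 165 CPM in Xbp1dIEC. These cells were picked for holding a Lifr UMI, and a higher mean count raises both the share and this level. The 2 values are therefore not separate results. After each cell was thinned to 2000 UMIs, so that depth was equal, the shares were 5.37% and 16.5%. As a gauge of free RNA, NK cells, at median depths of 3416 and 3048 UMIs, had no Lifr UMI in 23 and 29 cells, which allows shares of up to 13.04% and 10.3%, taking 3 counts as the limit that a count of 0 allows. T cells, at median depths of 3702 and 4054 UMIs, had a Lifr UMI in 2.16% and 5.63% of cells.

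In the B-2 gate Lifr stood at 19.1 CPM in WT and 52.6 CPM in Xbp1dIEC, a log2 ratio of 1.47 (1.15 to 1.79). In the stricter B-2 gate, however, it was at 11.1 CPM from 12 UMIs and 13.4 CPM from 9 UMIs, a log2 ratio of 0.28 (-1.15 to 1.65). That wide interval includes both 0 and the ratio of the full gate. In B-2 cells with a UMI of Fcer2a or Cr2, whatever their B-1 genes, Lifr was at 21.4 and 50.4 CPM, a ratio of 1.23 (0.85 to 1.62). B cells that passed neither subset gate had 30.4 CPM in WT and 82.9 CPM in Xbp1dIEC.

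T cells held few Lifr UMIs, 6 in WT and 19 in Xbp1dIEC, or 4.93 and 17.8 CPM. The log2 ratio was 1.85, with a wide interval of 0.47 to 3.46. Markers of B cells summed to 74.8 and 59.8 CPM in these T cells, and their part in the Lifr counts was not tested. The B-1 list summed to 620 and 806 CPM in T cells, of which S100a6 alone gave 461 and 673 CPM. That list reached 771 and 941 CPM in NK cells and 692 and 568.5 CPM in macrophages. Its sum is therefore no measure of B-1 RNA in T cells. Macrophages with a UMI of Gata6 or Timd4, genes of the large resident kind, had 19.8 and 21.98 CPM. Those without had 32.9 CPM in WT and 24.9 CPM in Xbp1dIEC, a log2 ratio of -0.40 (-0.70 to -0.10), opposite in sign to the B cells.

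The order of the classes differed between the libraries. In WT, Lifr was highest in B-1 cells, then in macrophages and B-2 cells, which did not differ beyond counting error (log2 ratio of B-2 cells over macrophages -0.26, -0.55 to 0.03), then in T cells. In Xbp1dIEC, B-1 cells were followed by B-2 cells, then by macrophages and T cells, which did not differ beyond counting error (T cells over macrophages -0.36, -1.10 to 0.30). NK cells had 0 UMIs in both, which by the same 3 counts allows 34.5 and 32.1 CPM, so their place in the order is not set. Cells that passed no gate, in which macrophage markers summed to 28532 and 33377 CPM and dendritic markers to 415 and 322 CPM, held Lifr at 40.4 and 47.5 CPM, above the gated macrophages.

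The partner receptor chains did not follow Lifr in B cells. Il6st, the gp130 gene, was at 33.4 CPM in WT and 31.6 CPM in Xbp1dIEC B-1 cells, a log2 ratio of -0.08 (-0.37 to 0.21). In B-2 cells it was at 31.9 and 27.9 CPM, and in T cells at 21.4 and 26.2 CPM. The intervals of these ratios all include 0. In macrophages, where counts were larger, it was at 20.8 CPM (19.2 to 22.5) and 25.7 CPM (23.6 to 27.8), a log2 ratio of 0.30 (0.14 to 0.46).

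Il6ra, the IL-6-binding chain, was mainly a gene of macrophages and T cells. In WT it was at 92.8 CPM in T cells and 90.4 CPM in macrophages, which did not differ beyond counting error, and at 43.6 CPM in B-1 and 39.7 CPM in B-2 cells. In Xbp1dIEC it was at 108 CPM in macrophages, 86.9 CPM in T cells, 48.5 CPM in B-1 and 41.9 CPM in B-2 cells. In macrophages the log2 ratio between libraries was 0.26 (0.18 to 0.33), about the same in those with Gata6 or Timd4 (0.24) and in those without (0.25). The median over all 11226 genes in macrophages was -0.07, and B-1 cells had an Il6ra ratio of 0.16 (-0.09 to 0.40).

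Stat3 had similar levels in the B-1, B-2 and macrophage gates of both libraries. In WT it ranged from 53.6 CPM in macrophages to 60.7 CPM in B-2 cells, and in Xbp1dIEC from 40.2 CPM in T cells to 65.8 CPM in B-1 cells, NK cells apart. The log2 ratio between libraries was 0.23 (0.02 to 0.45) in B-1 cells, -0.04 (-0.26 to 0.18) in B-2 cells, -0.52 (-1.10 to 0.05) in T cells and -0.01 (-0.11 to 0.10) in macrophages.

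Socs3, the feedback inhibitor whose window holds a TTCNNNGAA match, differed less than Lifr in B-1 and B-2 cells. It was at 38.2 CPM (32.9 to 44.1) in WT and 49.4 CPM (44.7 to 54.4) in Xbp1dIEC B-1 cells, a log2 ratio of 0.37 (0.12 to 0.63). Without cells at 5% or more mitochondrial UMIs, the levels were 36.5 and 38.3 CPM and the ratio 0.07 (-0.22 to 0.37). In B-2 cells it was at 29.3 and 31.5 CPM, a ratio of 0.10 (-0.21 to 0.42). B cells of neither subset gate had 30.4 and 60.3 CPM, a ratio of 0.99 (0.58 to 1.40), and all B cells together 0.49 (0.31 to 0.66); in the former, 13.04% and 31.2% of cells were at 5% or more mitochondrial UMIs, whose part was not tested. In macrophages it was at 44.0 and 50.6 CPM, a ratio of 0.20 (0.09 to 0.32). T cells went the other way, with 70.7 CPM in WT and 48.6 CPM in Xbp1dIEC and a ratio of -0.54 (-1.07 to -0.03); whether this differs from the other classes was not tested.

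Pim1 was higher in Xbp1dIEC B cells of both gates. In B-1 cells it was at 229 CPM (216 to 243) in WT, from 1105 UMIs, and 478 CPM (464 to 493) in Xbp1dIEC, from 4002 UMIs, a log2 ratio of 1.06 (0.97 to 1.16). The share of B-1 cells with a Pim1 UMI was 75.9% in WT and 90.9% in Xbp1dIEC, and 35.4% and 60.3% after thinning. In B-2 cells it was at 155 and 302 CPM, a ratio of 0.96 (0.84 to 1.08). Pim1 also differed in the stricter B-2 gate, with 83.8 CPM from 91 UMIs in WT and 170 CPM from 114 UMIs in Xbp1dIEC. The ratio was 1.02 (0.61 to 1.43), a value that the wide Lifr interval there (-1.15 to 1.65, from 12 and 9 UMIs) includes.

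Outside the B cells, Pim1 differed less between the libraries in T cells and macrophages. T cells had 306 and 330 CPM, a log2 ratio of 0.11 (-0.10 to 0.32). Macrophages had 30.1 and 34.7 CPM, a ratio of 0.20 (0.07 to 0.34). NK cells had 184 CPM from 16 UMIs and 299 CPM from 28 UMIs, a ratio of 0.70 (-0.24 to 1.69). In WT, T cells thus had more Pim1 than B-1 cells (log2 ratio of B-1 over T cells -0.42, -0.59 to -0.24), and in Xbp1dIEC they had less (0.54, 0.38 to 0.70).

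Cish, the inhibitor gene with 2 motif matches at its start, was low and also higher in Xbp1dIEC B cells. In B-1 cells it was at 7.88 CPM (5.58 to 10.8) from 38 UMIs in WT and 17.8 CPM (15.1 to 20.9) from 149 UMIs in Xbp1dIEC, a log2 ratio of 1.18 (0.65 to 1.73). In B-2 cells it was at 2.56 CPM from 16 UMIs and 12.7 CPM from 66 UMIs, a ratio of 2.31 (1.502 to 3.19). The stricter B-2 gate held 1 and 2 Cish UMIs, too few to place a ratio. T cells held 18.9 and 19.6 CPM, a ratio of 0.05 (-0.87 to 0.97), so the Xbp1dIEC B-1 cells reached the level of T cells. In macrophages, at a greater depth than B-1 cells in WT, 22 of 2962 WT cells (0.743%) and 17 of 2951 Xbp1dIEC cells (0.576%) had a Cish UMI, against 6.96% and 15.4% of B-1 cells.

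Il2ra was close to absent in macrophages, with 2 and 1 UMIs, and low in lymphocytes. B-1 cells held 18 UMIs, or 3.73 CPM (2.21 to 5.90), in WT and 110 UMIs, or 13.2 CPM (10.8 to 15.9), in Xbp1dIEC, a log2 ratio of 1.82 (1.09 to 2.62). A UMI was found in 3.18% and 11.99% of B-1 cells. B-2 cells held 3.04 and 7.30 CPM, a ratio of 1.26 (0.43 to 2.14), but the stricter B-2 gate held no Il2ra UMI in either library. T cells held 7 and 9 UMIs, or 5.75 and 8.41 CPM. Foxp3, which marks regulatory T cells, the T cells best known for Il2ra, had 2 UMIs in WT and 0 in Xbp1dIEC T cells, but with Ikzf2 and Ctla4 the regulatory T cell markers summed to 58.3 and 47.7 CPM. Of the T cells with an Il2ra UMI, 5 of 7 in WT and 4 of 9 in Xbp1dIEC also held Ikzf2.

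In all, 4 of the 8 members, Lifr, Pim1, Cish and Il2ra, were higher in Xbp1dIEC B-1 cells by 1.5-fold or more with an interval clear of no change, and none was lower. Among the 9384 genes with 30 or more UMIs in B-1 cells, 3.15% were higher by the same rule and 3.47% were lower. In the B-2 gate, which was mixed, the same 4 members were higher, against 1.77% of 9194 genes, with 2.86% lower. In the stricter B-2 gate only Pim1 of these 4 was higher by this rule. Lifr, Cish and Il2ra had fewer than 30 UMIs there and could not be counted. The members' median log2 ratio was 0.72 in B-1 and 0.53 in B-2 cells, and the median of all these genes -0.01 and -0.05. Over all B cells, the same 4 were higher, against 2.52% of 10483 genes, with 3.21% lower. In B cells of neither subset gate, 5 were higher, the 4 and Socs3 (30.4 and 60.3 CPM), against 3.08% of 7823 genes, with 3.29% lower. As the members were picked with these contrasts known, the counts are given as a description only.

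No member was higher or lower by that rule in the other classes. In macrophages 7 members had 30 or more UMIs, where 0.926% of 11226 genes were higher and 4.08% lower. In T cells 6 members did, where 2.63% of 5509 genes were higher and 1.89% lower; Lifr and Il2ra had too few UMIs there. In NK cells only Pim1 did, where 3.23% of 773 genes were higher and 3.23% lower.

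**Figure D2:**
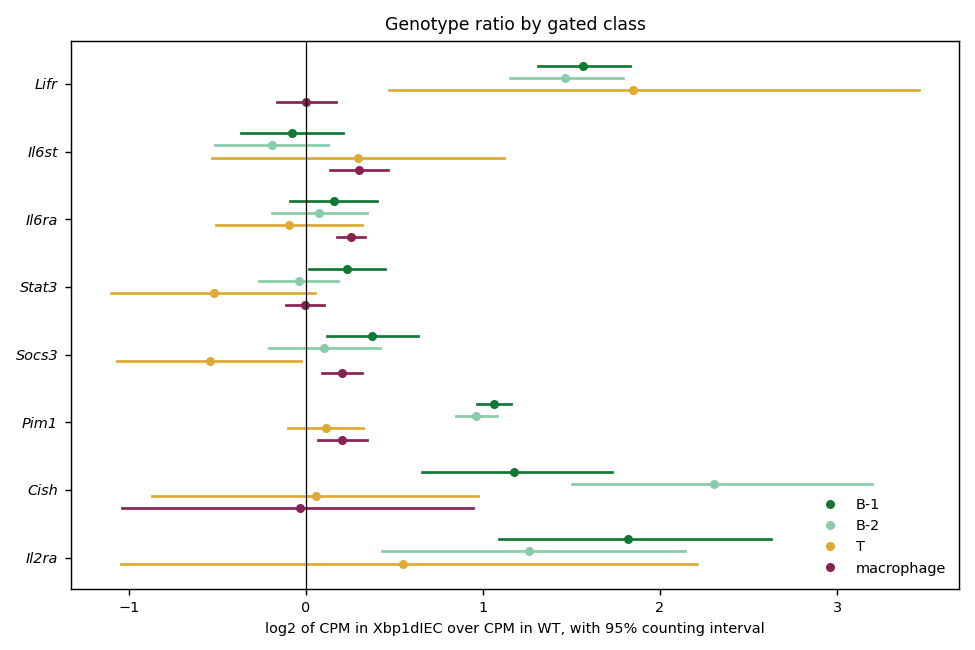
Log2 ratio of the CPM in Xbp1dIEC over WT (x axis) for each gene (y axis) in 4 gated classes, with 95% counting intervals; members with fewer than 10 UMIs in a class are left out, and 0 means no difference. Lifr, Pim1, Cish and Il2ra lie to the right of 0 in B-1 cells (1.56, 1.06, 1.18 and 1.82) and B-2 cells, while Il6st, Il6ra and Stat3 lie near 0.

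Mitochondrial share moved with the genotype and with Lifr. Cells at 5% to 10% mitochondrial UMIs made up 52 of 503 WT B-1 cells (10.3%) and 226 of 784 Xbp1dIEC B-1 cells (28.8%). In B-1 cells under 5%, Lifr was at 25.7 CPM in WT and 69.2 CPM in Xbp1dIEC, a log2 ratio of 1.43 (1.13 to 1.74). In those at 5% or more it was at 94.3 CPM from 33 UMIs and 151 CPM from 333 UMIs, a ratio of 0.68 (0.16 to 1.24). Within each library, Lifr was therefore higher in the B-1 cells with more mitochondrial RNA, and within each band it was higher in Xbp1dIEC.

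Pim1 differed in both bands, and Cish and Il2ra in the band where their counts sufficed. Pim1 was at 219 and 440 CPM under 5%, a ratio of 1.00 (0.90 to 1.11), and at 354 and 586 CPM at 5% or more, a ratio of 0.72 (0.46 to 1.00). Under 5%, Cish had a ratio of 1.20 (0.65 to 1.78) and Il2ra of 1.74 (0.97 to 2.59). At 5% or more, WT held 2 Cish UMIs and 1 Il2ra UMI, too few to place a ratio. Whether mitochondrial share plays a part in the levels within a band was not tested.

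B-1 cells were also split by state genes, taken from leading genes of earlier clusters of these data. Fbxw13, Prkar2b and Fgd2 led 1 state and Ahnak2, Phgdh and Ass1 another, and each cell went to the side with more UMIs. The Fbxw13 side held 161 of 503 WT and 433 of 784 Xbp1dIEC B-1 cells, and the Ahnak2 side 266 and 244, so the makeup differed between the libraries. Lifr was at 47.6 and 111 CPM on the Fbxw13 side and at 19.8 and 52.0 CPM on the Ahnak2 side. The log2 ratio of the libraries was 1.23 (0.87 to 1.60) and 1.39 (0.92 to 1.88), so the difference stood on both sides.

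Socs3 did not show this. It was at 59.9 and 62.6 CPM on the Fbxw13 side, a ratio of 0.06 (-0.28 to 0.42), and at 25.1 and 25.6 CPM on the Ahnak2 side, a ratio of 0.03 (-0.48 to 0.54). The Socs3 ratio of 0.37 over all B-1 cells was thus not seen within either side. Pim1 kept ratios of 0.94 (0.79 to 1.09) and 0.92 (0.77 to 1.08), Il2ra of 1.79 (0.68 to 3.15) and 1.58 (0.37 to 2.95), and Cish of 1.94 (0.83 to 3.29) and 0.93 (0.20 to 1.70). The Fbxw13 side held more cells at 5% or more mitochondrial UMIs, 17.4% in WT and 38.3% in Xbp1dIEC, than the Ahnak2 side, with 5.26% and 11.5%.

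**Figure D3:**
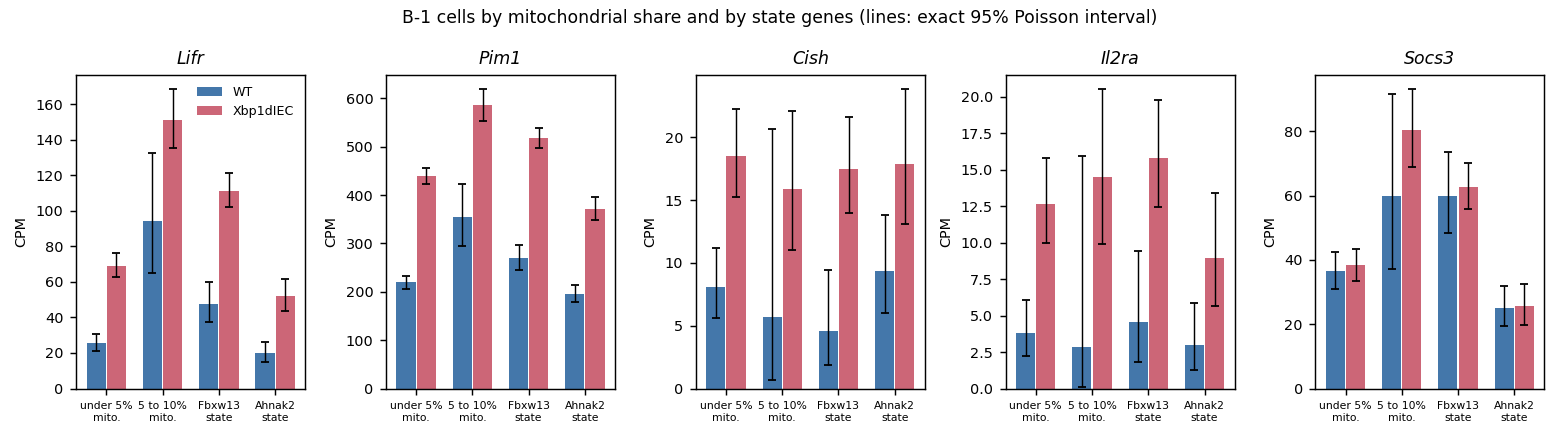
CPM (y axis, linear) of 5 genes in B-1 cells of WT (blue) and Xbp1dIEC (red), split by mitochondrial share and by the genes of the Fbxw13 and Ahnak2 states, with exact 95% Poisson intervals. Lifr and Pim1 are higher in Xbp1dIEC in all 4 subsets, while Socs3 is level between the libraries on the Fbxw13 side (59.9 and 62.6) and on the Ahnak2 side (25.1 and 25.6).

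With all UMIs counted, B-1 and B-2 cells that carried Lifr also carried Socs3 more often than the single shares within depth groups give. In WT B-1 cells, 41 held both, against 27.4 expected from the single shares within 5 depth groups, a ratio of 1.49 (1.07 to 2.03). In Xbp1dIEC B-1 cells, 164 held both, against 134 expected, a ratio of 1.22 (1.04 to 1.43). In B-2 cells the ratios were 1.71 (1.22 to 2.34) and 1.31 (1.00 to 1.68). Macrophages did not show it, with 0.83 (0.70 to 0.98) in WT and 1.03 (0.87 to 1.21) in Xbp1dIEC. The B-1 state and the mixed B-2 gate move with both genes, and their part in this was not tested.

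For the receptor pair itself, joint detection in B-1 cells did not differ beyond counting error from what depth gives. The Il6st level was higher in WT B-1 cells with a Lifr UMI than in those without, a log2 ratio of 0.55 (0.05 to 1.03). In Xbp1dIEC that ratio was -0.15 (-0.51 to 0.21). Lifr and Il6st were both detected in 38 WT B-1 cells against 29.4 expected, a ratio of 1.29 (0.92 to 1.78), and in 108 Xbp1dIEC B-1 cells against 113 expected, a ratio of 0.96 (0.79 to 1.16). Lifr and Pim1 had ratios of 1.10 (0.89 to 1.36) and 1.05 (0.94 to 1.16) in B-1 cells. Cish and Il2ra were together in 20 Xbp1dIEC B-1 cells against 19.6 expected. In WT, 3 cells held both.

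**Figure D4:**
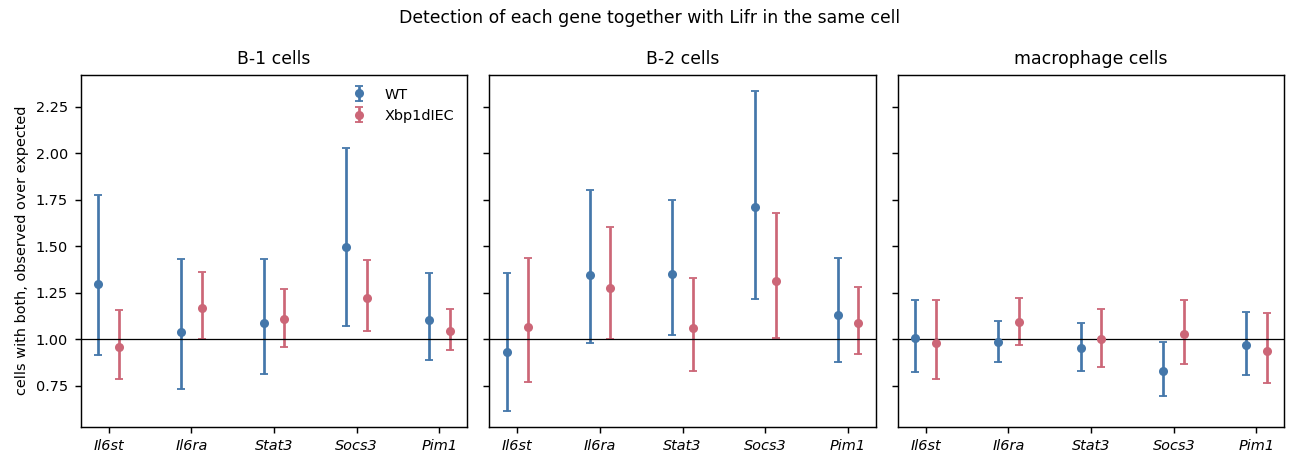
Number of cells with both Lifr and a second gene, divided by the number that the single shares give within 5 depth groups (y axis), for 5 partner genes (x axis) in 3 gated classes, with exact 95% Poisson intervals; at 1 both numbers are equal. Socs3 lies above 1 in B-1 and B-2 cells (1.49 and 1.71 in WT), while Il6st and Pim1 have intervals that include 1.

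Lifr-positive B-1 cells, those with a Lifr UMI, were compared with the Lifr-negative B-1 cells of the same library. They were deeper, with medians of 11192 against 7782 UMIs in WT and 10910 against 7878 in Xbp1dIEC, and 20.2% against 7.92% in WT and 40.0% against 18.8% in Xbp1dIEC were at 5% or more mitochondrial UMIs. Over 5886 genes ranked on the smaller ratio of the libraries, the 8 highest were Armc3, Pltp, Lrrc8d, Slc43a2, Mgl2, Acss1, Fbxw13 and Rnf144a. The 8 lowest were Epcam, Ccr1, 1810046K07Rik, Adm, Gm30382, Jchain, Cd3g and St3gal6.

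Armc3 was at 97.6 against 44.9 CPM in WT and 122 against 54.8 CPM in Xbp1dIEC, and Pltp, the phospholipid transfer protein gene, at 65.1 against 26.7 and 51.2 against 26.996 CPM. Epcam, which encodes an adhesion molecule, was at 9.52 against 26.4 CPM in WT and 9.81 against 27.3 CPM in Xbp1dIEC. Ccr1, a chemokine receptor gene, was at 20.6 against 56.5 and 11.8 against 33.6 CPM. The ranking required the same direction in both libraries, and the interval of Mgl2 in WT (-0.06 to 1.67) included 0. Markers of other cells also differed in WT: dendritic markers summed to 68.2 CPM in Lifr-positive and 21.1 CPM in Lifr-negative cells, macrophage markers to 2263 and 1668 CPM and NK markers to 17.5 and 4.77 CPM. In Xbp1dIEC these sums were 24.0 and 17.7, 1358 and 1213, and 5.23 and 6.09 CPM. Their part in the gene ranking was not tested. Among the state genes, Ahnak2 was lower in Lifr-positive cells by log2 ratios of -1.27 in WT and -0.997 in Xbp1dIEC.

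The genotype difference of Pim1 and Il2ra was present in B-1 cells without a Lifr UMI. In Lifr-negative cells Pim1 was at 223 and 422 CPM, a log2 ratio of 0.92 (0.80 to 1.05), and Il2ra at 3.09 and 10.3 CPM, a ratio of 1.74 (0.75 to 2.85). Cish was at 8.99 and 14.0 CPM, a ratio of 0.64 (-0.02 to 1.32). In Lifr-positive cells the ratios were 1.09 (0.92 to 1.26), 1.48 (0.36 to 2.84) and 2.14 (0.96 to 3.62). A cell without a Lifr UMI may still express the gene, since few transcripts of a cell are captured.

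Of the other 7 members, Socs3 alone differed between Lifr-positive and Lifr-negative B-1 cells beyond counting error in both libraries. It was at 54.7 CPM in Lifr-positive and 32.3 CPM in Lifr-negative WT B-1 cells, a log2 ratio of 0.76 (0.31 to 1.20). In Xbp1dIEC it was at 64.3 and 31.2 CPM, a ratio of 1.04 (0.73 to 1.36). Il6ra had ratios of 0.18 (-0.28 to 0.62) and 0.65 (0.35 to 0.95), Stat3 of 0.15 (-0.26 to 0.54) and 0.44 (0.18 to 0.69), and Pim1 of 0.15 (-0.05 to 0.34) and 0.31 (0.22 to 0.40). Il6st had 0.55 (0.05 to 1.03) in WT and -0.15 (-0.51 to 0.21) in Xbp1dIEC. Cish had -0.92 (-2.47 to 0.36) and 0.58 (0.08 to 1.09), and Il2ra 0.85 (-0.76 to 2.34) and 0.58 (0.0014 to 1.19).

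Counted over all 8 members, a B-1 cell of WT had UMIs of 2.22 members on average and one of Xbp1dIEC of 3.06. With 4 or more members were 18.9% and 37.2% of B-1 cells, and with none 9.94% and 2.42%. After thinning to 2000 UMIs the means were 0.761 and 1.18. Macrophages went slightly the other way before thinning, with 1.88 and 1.74 members, and were at 0.518 and 0.563 after it.

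Across the 5 classes in 2 libraries, the genes whose log2(CPM + 1) profile was most like that of Lifr, out of 10719 genes, were Pmepa1, Tubb3, Csf2rb, Gm18025 and Zkscan8, each with a Pearson r of 0.98. For Il6ra they were Ttyh3 and Mesdc2 at 0.98, Stag1 and Usp9x at 0.97 and Marcks at 0.96. These r values rest on 10 points that share 2 libraries, and NK cells with few UMIs weigh as much as macrophages. Among the members, Pim1 and Il2ra had the highest r, 0.91, and Il6st and Il6ra had 0.87. In NK cells, Il6st and Il6ra had 2 and 1 UMIs in WT and 0 in Xbp1dIEC. Between the WT B-1 cells and macrophages they went opposite ways, with Il6st at 33.4 and 20.8 CPM and Il6ra at 43.6 and 90.4 CPM.

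Lif was scarce in these cells, and the listed ligands were low even as a set. In WT and Xbp1dIEC the 9 genes summed to 38.2 and 33.4 CPM in B-1 cells and 35.1 and 35.5 CPM in B-2 cells. The sums were 37.8 and 30.8 CPM in T cells and 17.6 and 15.7 CPM in macrophages. Lif had at most 2 UMIs in any gated class and library, and Il6 had 40 and 25 UMIs in macrophages, or 1.35 and 1.06 CPM. Osm, the oncostatin M gene, was at 12.3 and 13.1 CPM in T cells and at 5.08 and 4.34 CPM in macrophages. Osmr, its receptor, had no UMI in any gated class. In B-1 cells 3 of 9 ligand genes and 2 of 5 further receptor genes had 30 or more UMIs over both libraries. None of these was higher or lower by the 1.5-fold rule.

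The kinases and other STATs were level in B-1 cells. Of 8 genes, all measured, none was higher or lower by 1.5-fold in B-1 cells, B-2 cells or macrophages, and their median log2 ratio in B-1 cells was -0.11. Jak1, which encodes a kinase that gp130 uses, was at 130 and 121 CPM in B-1 cells. Stat5b was at 13.9 and 18.5 CPM, a ratio of 0.42 (-0.01 to 0.85), and Stat5a at 12.4 and 10.5 CPM.

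Among the genes that restrain the pathway, 2 of 8 measured were higher in Xbp1dIEC B-1 cells, against 3.15% of all genes. Socs1, an inhibitor of JAK kinases, was at 19.7 CPM in WT and 44.5 CPM in Xbp1dIEC, a log2 ratio of 1.17 (0.85 to 1.51). It was higher in B-2 cells too, at 12.7 and 30.5 CPM, a ratio of 1.27 (0.87 to 1.68), and not in macrophages, at 1.85 and 2.04 CPM. Socs2, a STAT5 target, was at 1.87 CPM from 9 UMIs and 4.42 CPM from 37 UMIs in B-1 cells. Ptpn6, the phosphatase SHP-1, was lower in all 3 classes by less than 1.5-fold, with 130 and 101 CPM in B-1 cells.

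Known STAT3 targets outside the members did not follow Pim1. Of 18 listed, 14 were measured in B-1 cells, with none higher, 1 lower (Ccnd1, 8.71 and 4.54 CPM) and a median log2 ratio of 0.01. Over all genes in B-1 cells, 3.15% were higher and 3.47% lower. In B-2 cells none was higher and 2 were lower, Fos and Bcl6. Myc was at 64.3 and 74.6 CPM and Mcl1 at 310 and 335 CPM in B-1 cells, and Junb at 125 and 107 CPM.

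Of the 6 listed STAT5 targets, 3 were higher in Xbp1dIEC B-1 cells and 1 was lower, with a median log2 ratio of 0.79, against 3.15% higher and 3.47% lower and a median of -0.01 over all genes. Ccnd2, the cyclin D2 gene, was at 303 and 542 CPM, a ratio of 0.84 (0.75 to 0.92), and Cited2, a transcriptional co-regulator gene, at 35.9 and 102 CPM, a ratio of 1.51 (1.27 to 1.75). Socs2, above, is the third. Bcl2, which protects from cell death, went the other way, with 184 and 122 CPM, a ratio of -0.59 (-0.73 to -0.46). In B-2 cells Ccnd2 was at 177 and 357 CPM and Cited2 at 46.3 and 91.1 CPM, while no STAT5 target was higher or lower in macrophages. Socs2 was higher in T cells, at 29.6 and 57.9 CPM, and Id2 in NK cells. These genes were listed with earlier results of the data known.

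The receptors that share the common gamma or beta chain were split. Of 9 measured in B-1 cells, 2 were higher and 2 lower, against 3.15% and 3.47% of all genes. Csf2rb, the common beta chain of the IL-3, IL-5 and GM-CSF receptors, was at 66.0 and 103 CPM, a log2 ratio of 0.65 (0.46 to 0.84), and Csf2rb2 at 3.53 and 11.2 CPM, a ratio of 1.67 (0.92 to 2.51). Csf2rb and Csf2rb2 are close copies, so reads may have been split between them. Il5ra, the IL-5-binding chain, was lower at 26.1 and 17.2 CPM, and Il7r at 7.88 and 4.18 CPM. Il2rg, the common gamma chain that pairs with the Il2ra product, was at 117 and 93.6 CPM, a ratio of -0.32 (-0.47 to -0.16), and Il2rb at 5 and 15 UMIs.

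**Figure D5:**
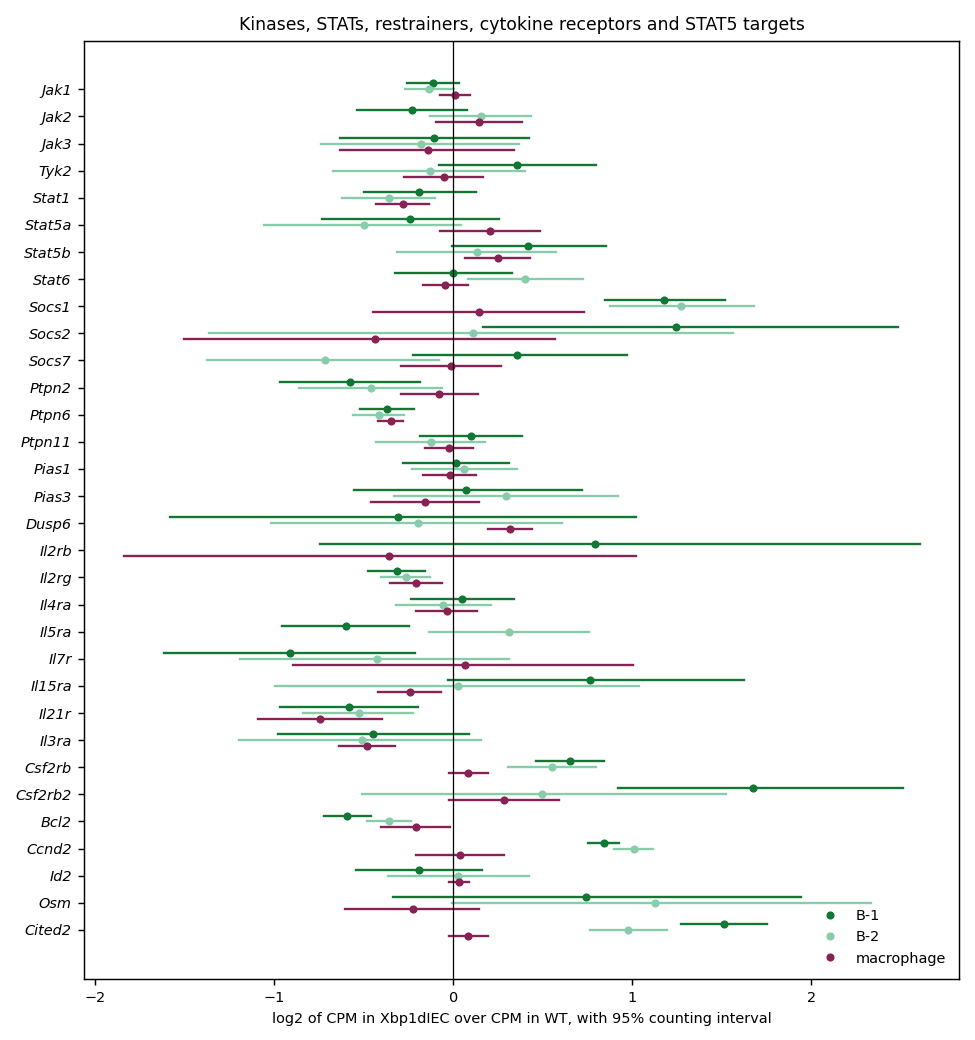
Log2 ratio of the CPM in Xbp1dIEC over WT (x axis) for the kinases and STATs, restrainers, common gamma and beta chain receptors and STAT5 targets (y axis) with 10 or more UMIs in B-1 cells, in B-1 cells, B-2 cells and macrophages, with 95% counting intervals. Socs1 (1.17), Ccnd2 (0.84) and Cited2 (1.51) lie to the right of 0 in B-1 cells, and the kinases lie near 0.

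Heat shock genes moved in the same direction as these members. Of 7 listed, 6 were higher in Xbp1dIEC B-1 cells, all but Hspa8, against 3.15% of all genes with 30 or more UMIs. The median log2 ratio of the 7 was 0.92, and their summed level was 1745 CPM in WT and 2105 CPM in Xbp1dIEC. Hsph1 was at 16.0 and 70.8 CPM in B-1 cells, a ratio of 2.15 (1.80 to 2.51), at 26.3 and 61.1 CPM in B-2 cells, at 24.6 and 50.5 CPM in T cells and at 12.7 and 22.7 CPM in macrophages. In macrophages the Hsph1 ratio was 0.83 (0.64 to 1.03), against 0.00 for Lifr and 0.20 for Pim1. Immediate early genes, which rise when cells are handled, summed to 265 CPM in B-1 cells of each library, with 0 of 8 measured genes higher or lower. In B-2 cells 4 of 8 were lower in Xbp1dIEC (Fos, Fosb, Dusp1 and Nr4a1), against 2.86% of all genes, with a median log2 ratio of -0.56. Fos and Dusp1 were also lower in T cells and in B cells of neither subset gate, and Egr1 in macrophages. The part of handling or stress in the members' levels was not tested.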

How the data were processed

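Per the labels' protocols, cells were encapsulated with a 10x Genomics controller and 3′ v2 kits, and both libraries were sequenced together. Values in the deposited matrices are raw counts (UMIs by gene and cell barcode), not normalized by the authors. Cell Ranger 2.2.0, Seurat 2.3.0 and the mm10 build appear in the submitters' processing notes, with no role. Which annotation and barcode filter were used is not given in the sources used here. The files held 6204 WT barcodes with 56229330 UMIs and 6246 Xbp1dIEC barcodes with 49703442 UMIs.

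A barcode had to hold at least 500 UMIs and 200 genes and less than 10% mitochondrial UMIs; 6 failed in WT and 20 in Xbp1dIEC. Scrublet in scanpy 1.11.5 (Python 3.11.15, expected rate 5%) called and removed 140 WT (2.26%) and 115 Xbp1dIEC (1.85%) doublets. A cell was gated at 3 or more UMIs summed over a set of B cell genes that includes Cd79a, Cd79b and Ms4a1 (B; the full set is not reported here), Cd3d, Cd3e and Cd3g (T), Ncr1, Klrb1c, Klre1 and Eomes (NK), or Adgre1, Csf1r, Fcgr1 and Mertk (macrophage). Cells past the gates of more than 1 lineage, 589 in WT and 324 in Xbp1dIEC, were left out. B-1 cells had 2 or more UMIs of Bhlhe41, Zbtb32, Fcrl5, Plscr1, Cd5 and Spn and more of these than of Fcer2a, Cr2 and Ighd, and B-2 cells the reverse. The gates held 76.8% of WT and 77.1% of Xbp1dIEC cells.

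UMIs were summed per class and library; log2 ratios have exact conditional binomial 95% intervals and no added constant, and need 10 or more UMIs. A gene was counted as higher or lower at 1.5-fold or more with an interval clear of no change and 30 or more UMIs. The calculation was tested on simulated data. No p-value was computed. The members, lists and thresholds were chosen with earlier results of these data known. Named genes were the members, the pathway lists, the most alike profiles by r (among genes with 100 or more UMIs), and the 8 highest and 8 lowest genes in Lifr-positive cells with 50 or more UMIs per library and 10 CPM. Subsets by mitochondrial share and the stricter gates were described after seeing the data. In up to 13 alternatives the gates, cell filters, scaling or added constant were changed. Sequences are from RefSeq.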

Additional observations from a re-analysis of the deposited data

Results flagged for a closer look

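Socs3 had log2 ratios of Xbp1dIEC over WT with opposite signs in different cell classes, each with a counting interval clear of 0. In B-1 cells the ratio was 0.37 and in macrophages 0.20, with Socs3 higher in Xbp1dIEC. The B-1 ratio was 0.07 (-0.22 to 0.37) in cells under 5% mitochondrial UMIs, and 0.06 (-0.28 to 0.42) and 0.03 (-0.48 to 0.54) on the Fbxw13 and Ahnak2 sides, where its interval includes 0. In T cells it was -0.54, with Socs3 lower in Xbp1dIEC. The T cell value rests on 86 and 52 UMIs in 278 and 231 cells. The difference between the classes was not tested, and with 1 library per genotype no test over samples was possible.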

How the results depend on the processing

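Each log2 ratio was recomputed under up to 13 alternatives, 1 of them, the stricter B-2 gate, chosen after seeing the data; no called ratio changed sign. For B-1 cells, 99 values stayed within counting error and 5 moved. With 10 CPM added to both levels, the ratios were 1.31 for Lifr, 0.64 for Cish and 0.75 for Il2ra, because a constant shrinks the ratios of low genes. With B-1 cells called from the absence of B-2 markers, Pim1 was at 1.19. With cells under 5% mitochondrial UMIs, Socs3 was at 0.0715; the cause was not tested. The B-1 ranges over the alternatives were 1.31 to 1.74 for Lifr, 1.00 to 1.19 for Pim1, 0.64 to 1.57 for Cish and 0.75 to 2.00 for Il2ra. In B-2 cells 13 values moved and 90 did not, and Lifr ranged from 0.28, in the stricter gate, to 1.62. In T cells 2 values moved, in macrophages 2, and in co-detection 6 of 120. No paired analysis was possible because each genotype was 1 pooled library. Depth limits the low genes: in NK cells a count of 0 (limit of 3 counts) allows 13.04% (WT) or 10.3% (Xbp1dIEC) of cells with a UMI, and Il2ra in T cells rests on 7 and 9 UMIs.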
